A study of Mus musculus with 13 samples.

Results

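Gipc2, Sdcbp2, Meltf, Mtmr11 and Cbr3 are 5 genes of the 20403 tested in mouse liver that were chosen by their measured array levels, which swung widely from mouse to mouse in step with Gpnmb, a glycoprotein of lipid-laden macrophages. Each was found through the gene name that the array carries for its probe, with Meltf under its older name Mfi2, and each had 1 probe among the 41174 probes of the array. All livers came from male mice of the C57BL/6 background that had eaten a western-style high-fat diet over 5 months. There were 3 mice with a SIRT1 TE knock-in allele (TEKI), 5 mice with a SIRT1 TA knock-in allele (TAKI) and 5 mice with WT SIRT1 (WT), and every mouse, WT included, had the same diet, so no group on another diet is at hand. The substituted residue is a threonine of SIRT1, an NAD-dependent deacetylase, replaced by glutamate in TEKI and by alanine in TAKI. Each mouse was measured on 1 Agilent 1-colour array, and arrays are called here by group and replicate number, such as TAKI1. Levels are log2 intensities minus the 75th percentile of the array, so that 0 is the 75th percentile.

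The members belong to different functional classes. Gipc2 and Sdcbp2 (syntenin-2) are PDZ-domain adaptors: the GIPC family links cargo receptors to the motor myosin VI, and syntenins bind phosphoinositides and the tails of syndecans. Meltf (melanotransferrin) is an iron-binding protein of the transferrin family held at the cell surface by a lipid anchor. Mtmr11 belongs to the myotubularin family of phosphoinositide phosphatases and is one of its members without catalytic activity. Cbr3 is an NADPH-dependent carbonyl reductase. Gpnmb is known in fatty liver as a marker of lipid-associated macrophages, which gather where lipid is taken up and express Trem2, Cd9 and Spp1.

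The levels rest on 1 probe of 60 bases per member. The first 30 bases of each are shown, 5′ to 3′, because they identify the transcript that was measured.
Gipc2: tgatgatctccttgagctgtacatggggat
Sdcbp2: ctgggtattgcagggatgtgtcccaggtga
Meltf: ttgccatgggccactgctgtgtttgtgcta
Mtmr11: ttttcatttcttgtgatttgaaaactaaga
Cbr3: tctgcaaactcagtctgaacaattcgctgt
The scanner files place them on build mm7. The Gipc2 probe lies at chr3:151995488-152003870, an interval of 8383 bases for a probe of 60, so its sequence is not contiguous in the genome. The other probes cover 60 contiguous bases each, with Sdcbp2 at chr2:151330530-151330589, Meltf at chr16:31573441-31573500, Mtmr11 at chr3:96045364-96045423 and Cbr3 at chr16:93751054-93751113. The files pair the probes with the transcripts of these genes, and their place in coding sequence or untranslated regions was not analysed here. The probes held 35.0% to 45.0% G and C and lay in array rows 23, 447, 445, 417 and 488 in the order of the sequences above. All 5, and the Gpnmb probe, were well above background and unsaturated on all 13 arrays.

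The arrays themselves differed in a few respects. Between 60.5% and 73.1% of probes were well above background on 12 arrays, against 86.8% on TEKI1, which also had 87 non-uniform spots where the others had 1 to 6. The arrays lay on 5 slides. The 3 TEKI arrays shared slide 3 with WT5, TAKI1 and TAKI2 lay on slide 4, TAKI3, TAKI4 and TAKI5 on slide 5, WT1, WT2 and WT4 on slide 1, and WT3 on slide 2. Every slide with TAKI held TAKI alone. Hepatocyte RNA was abundant on every array: Alb was saturated on all 13, and Ttr, Apoa1 and Cps1 varied 1.81-fold, 2.36-fold and 2.16-fold between the highest and the lowest array.

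Gipc2 had the widest range of the members. Its log2 level was -2.01, -0.57 and -3.27 in TEKI1 to TEKI3, -4.86, 0.85, -3.11, 0.05 and -0.51 in TAKI1 to TAKI5, and -0.85, 0.68, -0.66, -0.44 and -4.18 in WT1 to WT5. The low arrays were TAKI1, WT5, TEKI3, TAKI3 and TEKI1, with a gap of 1.16 to the next array, and the 3 genotypes overlapped. The highest array, TAKI2, exceeded the lowest, TAKI1, 52.2-fold, although both shared slide 4. The TAKI1 value was dim, at 0.0345 of the 75th percentile. The spread of Gipc2, and of Meltf and Mtmr11 below, was smaller under another background correction, as given in the closing section.

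Sdcbp2 had the same 5 lowest arrays. It measured -0.86, 1.37 and -1.03 in TEKI1 to TEKI3, -2.42, 2.38, -0.04, 1.35 and 1.00 in TAKI1 to TAKI5, and 1.24, 1.69, 1.65, 1.69 and -1.72 in WT1 to WT5, a 27.8-fold range. The arrays WT1 to WT4 lay close together, between 1.24 and 1.69, while WT5 was at -1.72. Low and high arrays were found in all 3 genotypes.

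Meltf was near the 75th percentile on most arrays and far below it on 5. Its level was -2.17, -0.30 and -2.36 in TEKI1 to TEKI3, -4.73, 0.21, -2.20, 0.09 and -0.87 in TAKI1 to TAKI5, and -0.22, -0.15, -0.36, 0.13 and -2.89 in WT1 to WT5. TAKI1 stood lowest by a gap of 1.84 and TAKI2 highest, 30.7-fold above it. The other 4 low arrays, between -2.89 and -2.17, were WT5, TEKI3, TAKI3 and TEKI1, and the next array was 1.31 higher.

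Mtmr11 was below the 75th percentile on all 13 arrays. It measured -3.05, -1.67 and -4.44 in TEKI1 to TEKI3, -4.73, -0.58, -3.26, -1.13 and -2.15 in TAKI1 to TAKI5, and -2.17, -0.51, -1.76, -1.37 and -4.36 in WT1 to WT5. TAKI1, TEKI3 and WT5, an array of each genotype, were its lowest, with a gap of 1.10 to the next. WT2 was its highest array, 18.7-fold above TAKI1.

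Cbr3 was above the 75th percentile on all 13 arrays. It measured 2.28, 3.94 and 1.37 in TEKI1 to TEKI3, 0.69, 4.16, 2.18, 4.63 and 3.32 in TAKI1 to TAKI5, and 2.53, 4.34, 4.23, 4.26 and 1.07 in WT1 to WT5. TAKI4 was its highest array and TAKI1 its lowest, 15.4-fold apart. The 5 low arrays ran into the others here, since TEKI1 was 0.25 below WT1.

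Gpnmb itself measured -1.84, -0.50 and -3.81 in TEKI1 to TEKI3, -4.08, 1.23, -1.82, 0.80 and 0.07 in TAKI1 to TAKI5, and 0.00, 0.42, 0.77, 0.36 and -1.47 in WT1 to WT5. TAKI1 and TEKI3 stood apart at the low end by a gap of 1.97, and WT5, at -1.47, was the highest of the 5 low arrays. A second Gpnmb probe was not well above background on any array, so it gives no second reading.

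**Figure D1:**
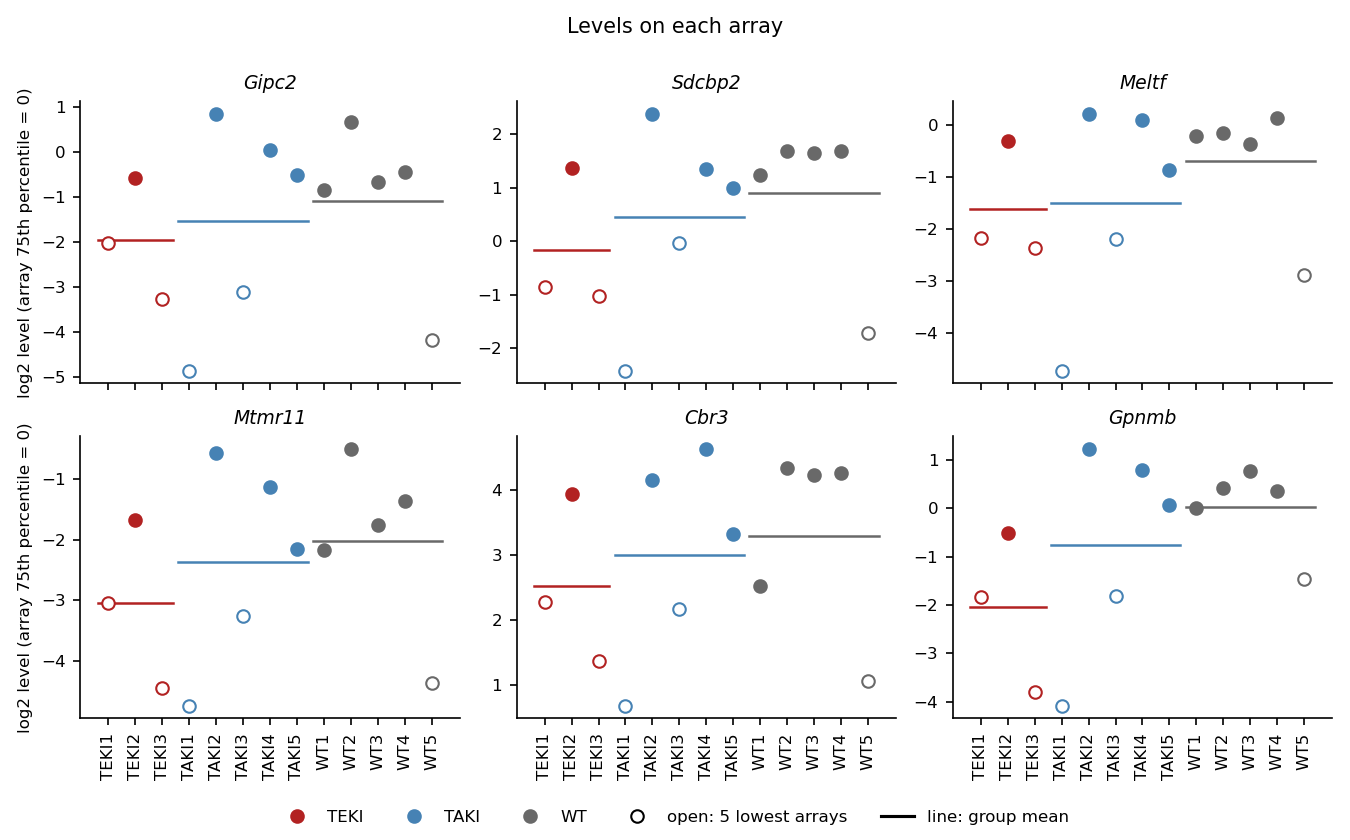
Log2 level of each gene (vertical axis, array 75th percentile = 0) on each array (horizontal axis, TEKI, TAKI, WT); open circles are TEKI1, TEKI3, TAKI1, TAKI3 and WT5, and lines are group means. These 5 arrays hold the lowest levels in all 6 panels, and each genotype has both low and high arrays.

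The 5 lowest arrays were the same for all 6 genes: 2 of 3 TEKI arrays, 2 of 5 TAKI arrays and 1 of 5 WT arrays. TAKI1 was the lowest array for 6 of 6 genes and TAKI2 the highest for 4 of 6. The low arrays came from slides 3, 4 and 5, and 3 of the 4 arrays of slide 3 were among them. Their share of probes well above background, 60.5% to 86.8%, spanned the range of all arrays, and over the 13 arrays that share had a Pearson r of -0.02 and a Spearman rho of 0.15 to the mean standardized level of the members (r = 0.11 without the 2 arrays farthest from the median share).

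The spread of the members, which was a reason for choosing them, placed them near the top of the 13215 bright genes, those with a current symbol and a probe well above background and unsaturated on all 13 arrays. The SD over the 13 arrays was 1.85 for Gipc2 (rank 3), 1.52 for Sdcbp2 (rank 6), 1.52 for Meltf (rank 7), 1.45 for Mtmr11 (rank 9) and 1.39 for Cbr3 (rank 21), against a median SD of 0.215 and a 99th percentile of 0.984. Hsd3b4 (SD 2.23, rank 2) stood just above Gipc2, and Gpnmb (SD 1.73, rank 4) and Myh2 (SD 1.67, rank 5) came between Gipc2 and Sdcbp2. Little of this spread lay between genotypes: 3.43% of the variance of Gipc2, 4.65% of Cbr3, 7.75% of Mtmr11, 7.91% of Sdcbp2 and 7.94% of Meltf, against a median of 17.6% over bright genes and 22.4% for Gpnmb. Between slides lay 25.6% to 35.2% of the members' variance, against a median of 39.7% over bright genes.

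Mice that shared a slide also differed widely. On slide 4, TAKI2 exceeded TAKI1 by 5.71 in Gipc2, 4.79 in Sdcbp2, 4.94 in Meltf, 4.16 in Mtmr11 and 3.48 in Cbr3. Among the 4 arrays of slide 3, levels spanned 3.61 log2 units for Gipc2, 3.09 for Sdcbp2, 2.59 for Meltf, 2.77 for Mtmr11 and 2.87 for Cbr3. The WT arrays of slide 1 lay closer together, with ranges of 0.35 for Meltf and 0.46 for Sdcbp2, and of 1.53 for Gipc2, 1.66 for Mtmr11 and 1.81 for Cbr3.

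The knock-ins were then set against WT and against each other. For none of the 5 members was a difference between genotypes larger than the spread between mice, and their intervals were wide in all 3 comparisons. In TEKI minus WT, limma called 0 of 5 members at an adjusted p under 0.05, where 0.0049% of all 20403 genes were called, and the smallest unadjusted p of a member was 0.336. In TAKI minus WT it called 0 of 5 members, against 2.82% of all genes (smallest unadjusted p of a member 0.409), and in TEKI minus TAKI 0 of 5, against 3.44% (smallest 0.519). Groups that do not overlap occurred for 3.94%, 7.5% and 8.29% of all genes in these comparisons and for no member in any of them. The TEKI and TAKI comparisons with WT share the WT arrays.

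For the adaptor Gipc2, the mean log2 level was -1.95 ± 1.35 in TEKI (SD, n = 3), -1.52 ± 2.39 in TAKI (SD, n = 5) and -1.09 ± 1.82 in WT (SD, n = 5). TEKI minus WT was -0.86 ± 1.34 (SE, limma adjusted p = 0.862) with a 95% interval of -3.79 to 2.07, which spans both directions. For Sdcbp2 the means were -0.17 ± 1.34 in TEKI, 0.45 ± 1.82 in TAKI and 0.91 ± 1.48 in WT, and TEKI minus WT was -1.08 ± 1.08 (SE, limma adjusted p = 0.743). Meltf averaged -1.61 ± 1.14 in TEKI, -1.50 ± 2.05 in TAKI and -0.70 ± 1.24 in WT. Its TAKI minus WT difference, -0.80 ± 0.93 (SE, limma adjusted p = 0.775), was the largest of the members in that comparison.

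Mtmr11 averaged -3.05 ± 1.38 in TEKI, -2.37 ± 1.67 in TAKI and -2.03 ± 1.44 in WT, and Cbr3 2.53 ± 1.31 in TEKI, 3.00 ± 1.59 in TAKI and 3.29 ± 1.45 in WT. Their TEKI minus WT differences were -1.02 ± 1.03 and -0.76 ± 1.00 (SE, limma adjusted p = 0.747 and 0.83). Over the 5 members, the median difference was -0.91 for TEKI minus WT, -0.42 for TAKI minus WT and -0.47 for TEKI minus TAKI, beside medians of 0.07, 0.00 and 0.06 over all genes tested. Gpnmb, which also did not pass, had the widest gap: -2.05 ± 1.66 in TEKI, -0.76 ± 2.19 in TAKI and 0.02 ± 0.88 in WT, with TEKI minus WT at -2.07 ± 1.12 (SE, limma adjusted p = 0.488).

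**Figure D2:**
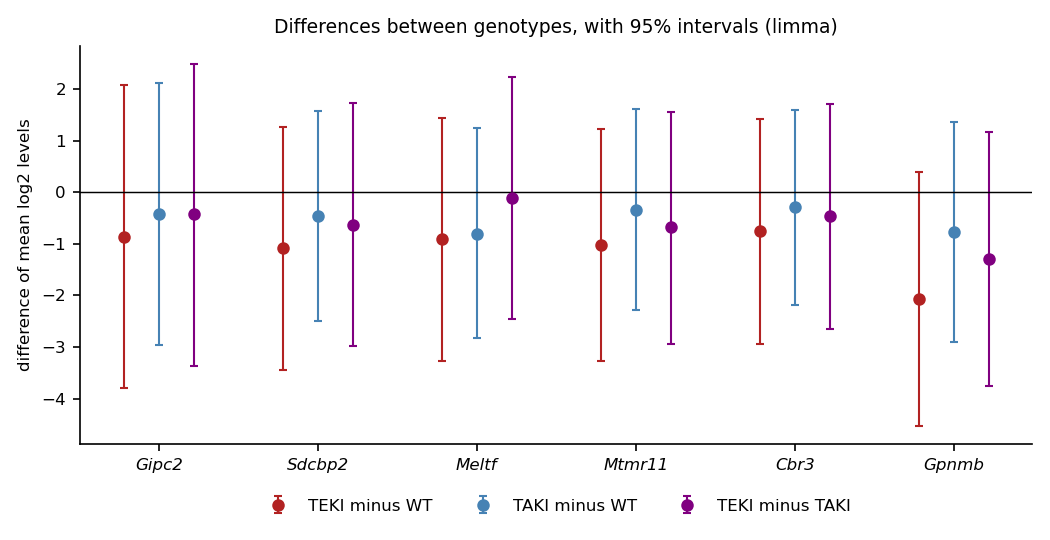
Difference of mean log2 levels (vertical axis) for TEKI minus WT, TAKI minus WT and TEKI minus TAKI, for each gene; points are limma estimates and bars 95% intervals. Every interval includes 0, from -3.79 to 2.07 for Gipc2 in TEKI minus WT to -2.18 to 1.60 for Cbr3 in TAKI minus WT.

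Single mice moved these differences. Leaving out 1 array at a time, TEKI minus WT stayed below 0 for all 6 genes, weakest without TEKI3, at -0.20 for Gipc2, -0.66 for Sdcbp2, -0.54 for Meltf, -0.33 for Mtmr11, -0.18 for Cbr3 and -1.19 for Gpnmb. It was furthest from 0 without TEKI2 for Sdcbp2 (-1.86), Meltf (-1.57), Mtmr11 (-1.71), Cbr3 (-1.46) and Gpnmb (-2.84), and without WT5 for Gipc2 (-1.63). Within slide 3, where the 3 TEKI arrays meet WT5 alone, all 5 members were higher in TEKI than in WT5, by 2.23 for Gipc2, 1.55 for Sdcbp2, 1.28 for Meltf, 1.31 for Mtmr11 and 1.46 for Cbr3, while Gpnmb was at -0.58; limma called none of the 6 there. Without TAKI1, the TAKI minus WT differences were 0.41 for Gipc2, 0.26 for Sdcbp2, 0.01 for Meltf, 0.25 for Mtmr11 and 0.29 for Cbr3. Slide and genotype cannot be told apart for TAKI.

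The members paralleled each other closely, which was the other reason for choosing them and is therefore a description without a test. Over the 13 arrays, which share one scaling per array, Pearson r between pairs of members ran from 0.92 (Meltf and Cbr3) to 0.98 (Gipc2 and Mtmr11), and Spearman rho from 0.87 to 0.97. With Gpnmb, r was 0.90 for Gipc2, 0.91 for Sdcbp2, Meltf and Mtmr11, and 0.89 for Cbr3. After centring on slide means the pairs of members had r from 0.91 to 0.98, and after centring on genotype means from 0.92 to 0.98.

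Pearson r was lower without the low arrays. Leaving out the lowest arrays narrows the range of levels, which by itself lowers r. The members' mean standardized level ran from -1.87 in TAKI1 to 1.1 in TAKI2 over all arrays. Without the low arrays it started at 0.26, in WT1. A looser likeness therefore cannot be read from these values. Over the other 8 arrays alone, a choice made after the levels were seen, r between pairs of members ran from 0.49 (Meltf and Cbr3, and Sdcbp2 and Cbr3) to 0.94 (Gipc2 and Mtmr11). With Gpnmb it was then 0.63 for Gipc2, 0.70 for Sdcbp2, 0.54 for Meltf, 0.60 for Mtmr11 and 0.51 for Cbr3. Gipc2 and Mtmr11 had the highest r of the pairs of members both over all arrays and over these 8.

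The genes most like the members were ranked by Pearson r, over 13 arrays, to the mean of the 5 standardized levels. Of the other 13210 bright genes, 633 (4.79%) had an r above 0.8, 165 of them above 0.9, while 318 (2.41%) had an r below -0.8, and the median r was -0.12. The 12 most like, all with an r from 0.97 to 0.98, were Nipa1, a magnesium transporter, Uap1l1, Cd63, a tetraspanin of late endosomes, Ttc39a, Cela1, a serine protease, Serpina7, the thyroxine-binding globulin, Sptlc2, a subunit of serine palmitoyltransferase, Pls1, an actin bundler, Ddit4l, an inhibitor of mTOR signalling, Pdgfrb, the PDGF receptor beta of stellate cells, Haus8, a subunit of the augmin complex, and Smox, the spermine oxidase. All 12 had TEKI1, TEKI3, TAKI1, TAKI3 and WT5 as their lowest arrays. Gpnmb came in place 96 with an r of 0.92.

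These genes moved over much narrower ranges than the members in some cases. Cela1 ranged 15.6-fold and Cd63 11.2-fold, but Nipa1 3.01-fold and Sptlc2 1.98-fold between the highest and the lowest array. Cd63 measured 2.74, 4.29 and 1.66 in TEKI1 to TEKI3, 1.32, 4.81, 2.34, 4.18 and 3.72 in TAKI1 to TAKI5, and 3.78, 4.00, 3.98, 3.79 and 1.72 in WT1 to WT5, again with all 3 genotypes overlapping. Second probes were read where the array had them: the second Cela1 probe had an r of 0.94, and the other Ddit4l probes 0.89 and 0.95. The second probes of Uap1l1 (r = 0.73), Nipa1 (0.58) and Smox (0.36) were less alike. They were well above background on 12, 5 and 3 arrays. Of the other Sptlc2 probes, one had an r of 0.92 and one of -0.09, so the likeness of Sptlc2 depends on the probe.

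The single nearest gene differed between members. It was Cela1 for Gipc2 (r = 0.98), Pdgfrb for Sdcbp2 (0.98), Ttc39a for Meltf (0.98), Nipa1 for Mtmr11 (0.99) and Anxa5 for Cbr3 (0.97). The next nearest were Mtmr11 and Tmem176a for Gipc2, Uap1l1 and Serpina7 for Sdcbp2, Uap1l1 and Sdcbp2 for Meltf, Ddit4l and Arhgef2 for Mtmr11, and Nid1 and Smox for Cbr3. Gpnmb was nearest to Trem2, a lipid receptor of macrophages (r = 0.97), then Emp2, a tetraspan membrane protein, and Hk2, a hexokinase (both 0.95), and to none of the members.

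The 6 most opposite genes, high on the arrays where the members were low, were Lifr, the leukaemia inhibitory factor receptor (r = -0.97), Hsd3b4, a hydroxysteroid dehydrogenase (-0.96), Cyp2d13 (-0.96), Polr3e, a subunit of RNA polymerase III (-0.95), Ppme1, a methylesterase of protein phosphatase 2A (-0.94), and Cilk1, a kinase of primary cilia (-0.94). Lifr measured 3.31, 2.69 and 3.69 in TEKI1 to TEKI3, 4.06, 2.47, 3.62, 2.63 and 3.15 in TAKI1 to TAKI5, and 3.01, 2.58, 3.02, 2.79 and 4.13 in WT1 to WT5, so that WT5 and TAKI1 were its highest arrays and TAKI2 its lowest. Hsd3b4 and Cyp2d13 have close relatives that their probes may also read, which was not tested. For 5 of the 6 genes the highest arrays were the 5 that were lowest for the members, with Polr3e as the exception. For 4 of these genes other probes were less opposite or not opposite. Other probes of Cilk1 had r of 0.36 and 0.33, above 0, so the opposite course of Cilk1 depends on the probe. Those of Ppme1 had r of -0.28 and -0.57, that of Polr3e -0.66 and those of Lifr -0.80, -0.80, -0.75 and -0.32. Of the 13 other probes of the most like and most opposite genes that were well above background on all 13 arrays, 4 had an absolute r above 0.8. None of the 12 most like and none of the 6 most opposite genes passed the threshold in any comparison of genotypes (smallest limma unadjusted p 0.188 for Pdgfrb and 0.173 for Cilk1, both in TEKI minus WT).

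**Figure D3:**
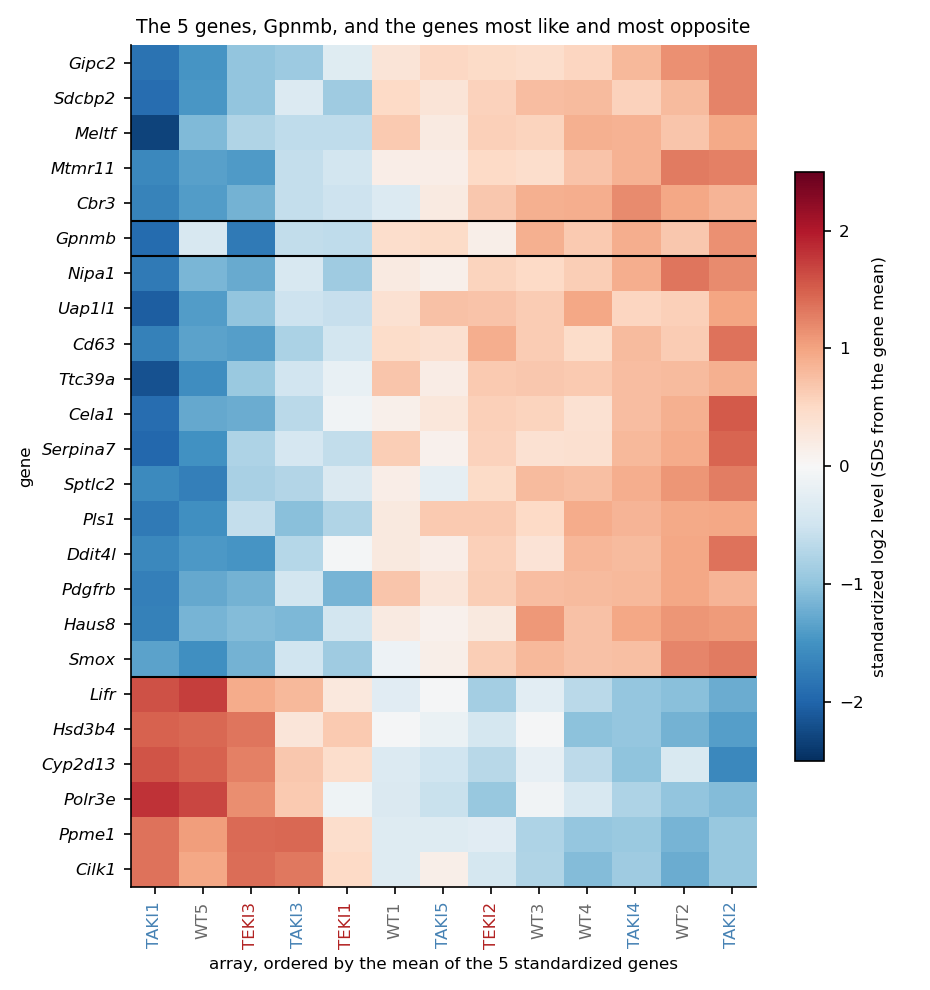
Standardized log2 level (colour, SDs from each gene's mean) of the 5 members, Gpnmb, the 12 genes most like and the 6 most opposite (rows), with the 13 arrays ordered by the mean of the 5 members (columns, labels in the colour of the genotype). TAKI1, WT5, TEKI3, TAKI3 and TEKI1 form the low end for the members and the high end for the opposite genes.

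Markers of lipid-associated macrophages ran with the members. Of 15 bright markers, including Gpnmb, which the members were chosen to parallel, 11 had an r above 0.8 (median 0.89), against 4.79% of all bright genes, and all 15 were above 0. Markers that follow Gpnmb, such as Trem2, share in that choice, so the share is a description and not a test. Cd63 (r = 0.97), Trem2 (0.95), the osteopontin gene Spp1 (0.94), Lgals3, which codes for galectin-3 (0.91), the tetraspanin Cd9 (0.90) and the integrin Itgax (0.89) led them, and Atp6v0d2 (0.48) was the lowest. Cd63, Spp1, Lpl and Atp6v0d2 also stand on other lists below. Trem2 measured 1.27, 2.34 and 0.19 in TEKI1 to TEKI3, 0.03, 3.23, 1.13, 2.74 and 2.28 in TAKI1 to TAKI5, and 2.05, 2.80, 3.40, 2.43 and 0.97 in WT1 to WT5, with the same 5 arrays lowest. In whole liver, fewer cells of a type and less RNA per cell cannot be told apart, and whether the members' RNA came from these macrophages was not tested. Over the 8 other arrays r of the 15 markers ran from 0.28 for Cd68 to 0.87 for Spp1, with 0.68 for Cd63 and 0.66 for Trem2.

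Markers of resident Kupffer cells did so to a lesser degree and not throughout, with 10 of 13 above 0. None of 13 had an r above 0.8 (median 0.48), with Clec1b at 0.73 and Adgre1 at 0.59 the highest. The defining markers Clec4f (-0.20) and Timd4 (-0.37) were below 0, and Cd163 (-0.58) was the lowest. Over the 8 other arrays r ran from -0.83 for Cd163 to 0.57 for Clec1b, with Adgre1 at 0.05 and Timd4 at -0.76. The difference between both marker lists is given as a description and was not tested.

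**Figure D4:**
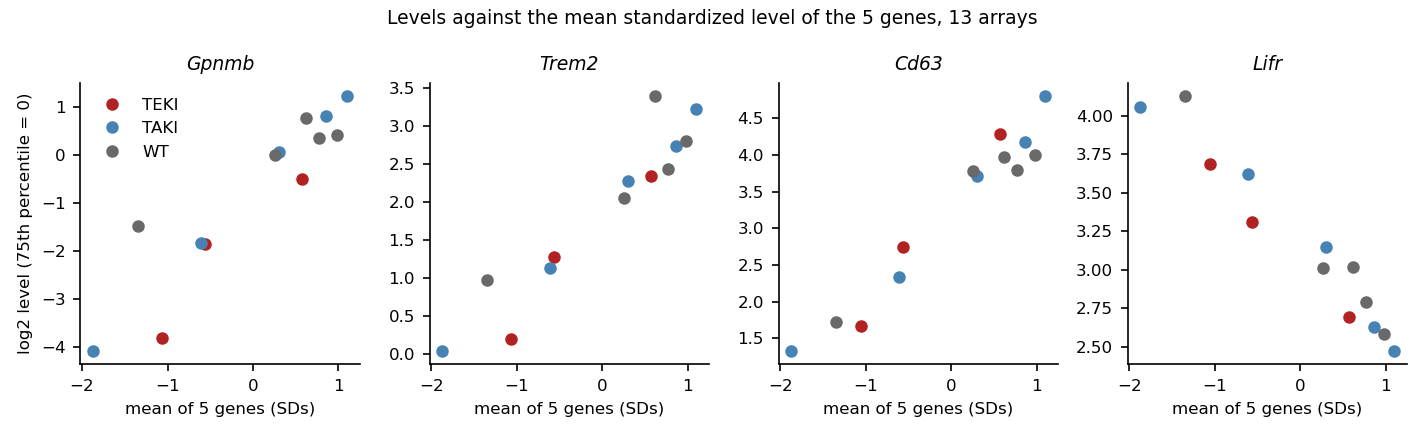
Log2 level of Gpnmb, Trem2, Cd63 and Lifr (vertical axes, array 75th percentile = 0) against the mean standardized level of the 5 members (horizontal axes, in SDs), 1 point per array in the colour of TEKI, TAKI or WT. Gpnmb, Trem2 and Cd63 rise along the axis (r = 0.92, 0.95 and 0.97), Lifr falls (r = -0.97), and the genotypes are mixed along it.

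Other cell types gave a mixed picture. Among stellate and myofibroblast markers, 5 of 12 had an r above 0.8 (median 0.71), led by Pdgfrb (0.97) and the collagen gene Col1a1 (0.93), while Acta2 (0.61), Des (0.02) and Tagln (-0.16) were lower. Over the 8 other arrays r was 0.78 for Pdgfrb, 0.36 for Col1a1, 0.24 for Col3a1 and 0.19 for Col1a2. Of cholangiocyte and progenitor markers 1 of 8 did, Spp1, which is also on the macrophage list, and the next was Cd24a (0.72). Endothelial markers (0 of 11, with Lyve1 at 0.75 and Cdh5 at 0.72 the highest) and lymphocyte markers (0 of 12, with Cd4 at -0.60 and Cd3e at -0.59) had none. Of the 4 bright acinar markers of pancreas, Cela1 had an r of 0.97 but Sycn 0.01, Cel -0.38 and Ctrb1 -0.71, so Cela1 did not move with the acinar genes.

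Hepatocyte markers ran the other way. All 11 that were bright had an r below 0, from -0.81 for Cyp2e1 to -0.15 for Ttr, with Hnf4a at -0.75 and a median of -0.65, beside the median of -0.12 over all bright genes. Over the 13 arrays they varied between 1.52-fold (Cebpa) and 3.94-fold (Cyp7a1), with Cyp2e1 at 1.71-fold and Hnf4a at 1.79-fold, against 15.4-fold to 52.2-fold for the members. Without the low arrays, over the narrower range of the members, not all of the list had an r below 0. Over the 8 other arrays r ran from -0.82 for Cyp2e1 to 0.59 for Cyp7a1, with Hnf4a at -0.48, Cps1 at -0.08 and Ass1 at 0.17.

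The relatives and partners of each member were read from lists of their families. Among partners of syntenin and GIPC, the exosome protein Cd63 (0.97) and Sdcbp, the syntenin-1 gene (0.87), had an r above 0.8, and the syndecan Sdc2 was opposite (-0.91), the only one of 11 below -0.8. Sdcbp followed Sdcbp2 over a narrow range, from 3.92 in TAKI1 to 4.54 in TAKI2, a 1.55-fold span. Gipc1, the close relative of Gipc2, had an r of 0.55 and a 1.52-fold span, and Myo6, the motor that GIPC proteins bind, an r of 0.20.

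No other gene of the transferrin and iron uptake family reached 0.8 in either direction (0 of 9). Tfr2, the transferrin receptor of hepatocytes, was the most opposite (-0.76), Steap4, a metalloreductase, the most like (0.73), and transferrin itself (Trf) had an r of -0.12 beside Meltf. Of the 13 other bright myotubularins none reached 0.8 in either direction either, with Mtmr6 at 0.69 and Mtmr1 at -0.63 at the ends.

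For Cbr3, the other carbonyl and aldo-keto reductases were mostly not alike: 1 of 23 had an r above 0.8, Dhrs9 (0.89), a retinol dehydrogenase, and 1 below -0.8, Hsd11b1 (-0.91), which reactivates glucocorticoids. Its close relative Cbr1 had an r of 0.66 and varied 2.38-fold. Cbr3 is also a target of NRF2, the regulator of antioxidant genes, and of 18 other bright NRF2 targets 4 had an r above 0.8: Pgd (0.96), Hmox1 (0.83), Srxn1 (0.83) and Abcc4 (0.80). This share stands against the 4.79% of all bright genes. The median r of the 18 was 0.63, beside -0.12 over all bright genes, and 15 of 18 were above 0. The classical target Nqo1 was at 0.63 and Gclm at -0.18.

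Lipid storage and lysosomal genes completed the lists. Of 18 lipid droplet and PPARgamma genes, 4 had an r above 0.8: the lipid chaperone Fabp4 (0.92), Ubd (0.92), Pparg itself (0.88) and Cidec (0.83), while the droplet coat genes Plin2 (0.44), Plin4 (0.46) and Plin5 (0.44) did not, and Cfd (-0.78) and G0s2 (-0.73) ran the other way. Over the 8 other arrays r was 0.66 for Fabp4, 0.77 for Ubd, 0.50 for Pparg and 0.01 for Cidec. Of 29 lysosomal genes 3 had an r above 0.8: Cd63, Gla (0.85) and Hexa (0.84). These shares, 4 of 18 and 3 of 29, stand against the 4.79% of all bright genes.

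**Figure D5:**
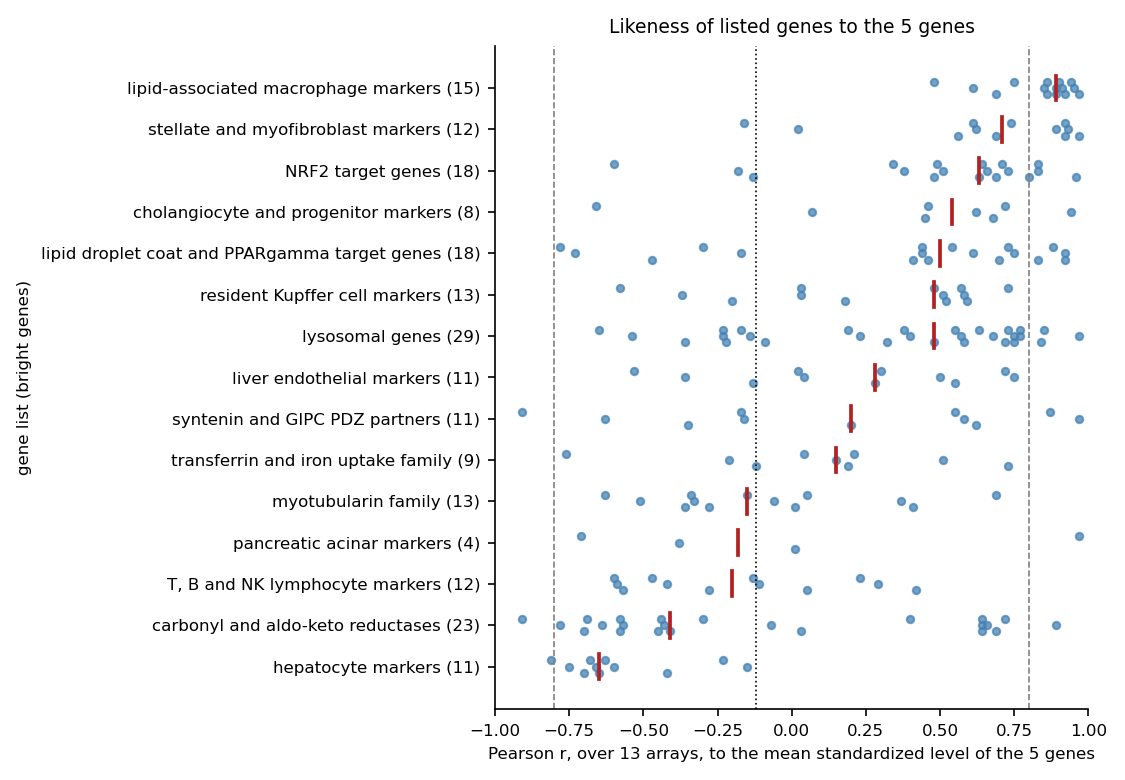
Pearson r over the 13 arrays to the mean standardized level of the 5 members (horizontal axis) for each bright gene (point) of each list (rows, number of bright genes in brackets); red bars are list medians, dashed lines 0.8 and -0.8, and the dotted line the median of all bright genes, -0.12. The macrophage list lies highest (median 0.89) and the hepatocyte list lowest (median -0.65).

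The same lists gave few calls between genotypes. Of the 17 lipid-associated macrophage markers tested, limma called 0 in each comparison, and 0 had an unadjusted p under 0.05; their median difference was -0.47 for TEKI minus WT, -0.02 for TAKI minus WT and -0.47 for TEKI minus TAKI. In TAKI minus WT, where 1.88% of all genes were called higher, the lymphocyte marker Cd2, a T cell adhesion molecule, rose by 1.05 ± 0.14 (SE, limma adjusted p = 0.00309). Of 11 acinar markers tested, Cpb1 rose (1.68 ± 0.38, SE, limma adjusted p = 0.0401; well above background on 5 of 5 TAKI arrays and 3 of 5 WT arrays), as did Sycn, and Rnase1 fell (-2.10 ± 0.42, SE, limma adjusted p = 0.0204), as did Zg16, where 0.941% of all genes were called lower; in TAKI, Rnase1 was well above background on 3 of 5 arrays and Zg16 on 1 of 5. Over the arrays, r to the members was -0.11 for Cd2 and 0.01 for Sycn. Apart from the lymphocyte and acinar lists, 13 lists had no gene called by limma in any comparison, and at most 3 genes of any of them had an unadjusted p under 0.05 in a comparison.

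The promoters of 5 of these 6 genes, Sdcbp2, Meltf, Mtmr11, Cbr3 and Gpnmb, were found in a RefSeq table on build GRCm38.p6, as windows from 250 bases before to 50 after the start. The 7 motifs below were searched on both strands of these windows, and a match is a description of the letters and not a binding site.
The AP-1 site TGAGTCA was found in 2 of the 5, Sdcbp2 and Gpnmb, and in 5.2% of all 32851 promoter windows. The part around the start is shown for both, from 100 bases before to 30 after it, with the AP-1 letters (on either strand) in capitals.
Sdcbp2, chr2:151572523-151572652, plus strand: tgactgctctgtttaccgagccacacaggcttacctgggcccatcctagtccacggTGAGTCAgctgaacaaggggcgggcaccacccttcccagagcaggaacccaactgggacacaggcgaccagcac
Gpnmb, chr6:49036418-49036547, plus strand: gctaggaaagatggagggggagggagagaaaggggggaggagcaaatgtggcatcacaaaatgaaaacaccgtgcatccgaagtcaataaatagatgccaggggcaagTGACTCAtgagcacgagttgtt
The match began 44 bases before the start in Sdcbp2 and 8 bases past it in Gpnmb. Meltf, Mtmr11 and Cbr3 had no such match in their windows. The GC box GGGCGG was found in Sdcbp2 and Cbr3 (35.7% of all windows), the CCAAT box CCAAT in Sdcbp2 and Meltf (37.4%) and the M-box core CATGTG in Sdcbp2 (14.2%). The E-box CACGTG (7.15% of all windows), the antioxidant response element core TGACNNNGC (12.4%), which can overlap an AP-1 site, and the TATA box TATAAA (13.6%) were found in none of the 5, and no motif was shared by all.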

How the data were processed

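Spot intensities on a linear scale were deposited. Per the file headers, the authors extracted them with Agilent Feature Extraction 9.5, which subtracted the background and detrended each array, and arrays were not scaled to each other. The value table holds identical numbers. Control spots and outlier spots were dropped and replicate spots of a probe averaged. Deposited intensities were converted to log2 here, relative to the array's 75th percentile. A gene was represented by its brightest probe, required to be well above background on 3 or more arrays (20403 genes).

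Genotypes were compared with limma 3.58.1 in R 4.3.3, in 1 model over 13 arrays (10 residual degrees of freedom), with Benjamini-Hochberg adjustment over all genes and a threshold of 0.05. The number of arrays limits the precision. The model was tested on simulated data. Likeness is Pearson r over arrays, and standardized levels have mean 0 and SD 1. Named genes are the members, Gpnmb, the 12 most like and 6 most opposite genes, the 3 nearest to each member, and from each list the 2 of highest absolute r and up to 2 past the threshold; others were chosen after their values were seen. The members and lists were chosen with earlier results of these data known. Alternatives changed the scaling, background correction, probe filter, probe choice, slide and replicate blocks, and left out each array. A marker gene and a probe sequence are not reported here. Replicate numbers were not used to pair mice. Genes were named, and promoters read, from RefSeq tables (GRCm38.p6), with Python 3.11.15, pandas 2.3.3, scipy 1.17.1 and matplotlib 3.10.9.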

Additional observations from a re-analysis of the deposited data

Results flagged for a closer look

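WT5 stood far from the other 4 WT arrays in 10 of the 24 genes whose levels were followed array by array, or 10 of 48 groups of 5 arrays examined; by Dixon's criterion (a gap above 0.71 of the range of 5 arrays) chance flags about 1 in 20 groups, and the genes were chosen for moving together, so these are not independent. Among the members, Sdcbp2 was at -1.72 in WT5, against 1.24 to 1.69 in the other WT arrays, and Meltf at -2.89, against -0.36 to 0.13. Among the genes most like them, the WT5 level was 1.65 for Uap1l1 (others 3.19 to 3.69), 1.72 for Cd63 (3.78 to 4.00), -2.19 for Ttc39a (0.15 to 0.30), 0.20 for Serpina7 (2.12 to 2.66), -2.66 for Pls1 (-0.58 to 0.25) and 0.72 for Pdgfrb (1.52 to 1.64). Of the opposite genes, WT5 was high in Lifr, at 4.13 (others 2.58 to 3.02), and in Cyp2d13, at 2.35 (1.39 to 1.59). No TAKI array was singled out in these genes, and the 3 TEKI arrays were too few to examine.

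Rnase1 and Zg16, on the acinar list, differed between both knock-ins: TEKI minus TAKI was 2.99 ± 0.49 for Rnase1 (SE, limma adjusted p = 0.0054) and 2.74 ± 0.48 for Zg16 (SE, limma adjusted p = 0.00787). In TAKI, Rnase1 was well above background on 3 of 5 arrays and Zg16 on 1 of 5, against all 3 TEKI arrays for both genes.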

How the results depend on the processing

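No member and not Gpnmb passed the threshold under any alternative (smallest limma adjusted p 0.328 for a member and 0.261 for Gpnmb). This covers 355 estimates for the members and 71 for Gpnmb, with each gene and comparison counted under each alternative. The deposited value table, which holds identical numbers, is among the alternatives and could not change an estimate. Of these estimates, 27 for the members and 1 for Gpnmb turned the sign. With slide as a fixed block or within slide 3, TEKI minus WT was 2.23 for Gipc2, 1.55 for Sdcbp2, 1.28 for Meltf, 1.31 for Mtmr11 and 1.46 for Cbr3; these values rest on WT5 as the lone WT array. Leaving out 1 array gave, for TAKI minus WT, -1.19 to 0.41 for Gipc2, -1.12 to 0.26 for Sdcbp2, -1.35 to 0.01 for Meltf, -0.92 to 0.25 for Mtmr11, -0.84 to 0.29 for Cbr3 and -1.27 to 0.06 for Gpnmb, and for TEKI minus TAKI -1.27 to 0.22 for Gipc2, -0.92 to 0.31 for Meltf, -1.37 to 0.01 for Mtmr11 and -1.17 to 0.11 for Cbr3. With the replicate number as a block, Meltf in TEKI minus TAKI was at 0.03, and 1, 344 and 599 genes were called for TEKI minus WT, TAKI minus WT and TEKI minus TAKI; the numbers were not taken as pairs, since the array correlated best with its own number in 3 of 11 checks over the 3 comparisons. Normexp background correction was run with an offset of 50 added to each intensity, which narrows log2 differences between dim values. Under it the SD was 1.22 for Gipc2, 1.33 for Sdcbp2, 1.04 for Meltf, 0.80 for Mtmr11, 1.35 for Cbr3 and 1.30 for Gpnmb. How much of the change came from the offset was not tested. Without TAKI1 the SD was 1.31 for Sdcbp2, 1.14 for Meltf and 1.25 for Cbr3, and the cause was not tested.

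The counts of genes called were 1 for TEKI minus WT, 576 for TAKI minus WT (384 higher, 192 lower) and 702 for TEKI minus TAKI (503 higher, 199 lower). Median scaling, under which the median difference of all genes was -0.36, -0.15 and -0.21, against 0.07, 0.00 and 0.06 as reported, gave 2, 999 (579 higher, 420 lower) and 1023 (520 higher, 503 lower). Quantile normalization gave 5, 880 (525 higher, 355 lower) and 1131 (495 higher, 636 lower). Normexp gave 0 (3447 at an unadjusted p under 0.05), 647 (168 higher, 479 lower) and 4223 (4051 higher, 172 lower). Testing only probes well above background on all 13 arrays gave 0, 254 and 296, and no filter gave 2 for TEKI minus WT. Slide as a fixed block gave 8 and slide 3 alone 0 for TEKI minus WT; only the groups compared gave 1335 for TAKI minus WT (1059 higher, 276 lower). Leaving out 1 array gave 0 to 91 for TEKI minus WT (18 without WT5, 0 without TEKI1, 91 without TEKI2, 0 without TEKI3), 288 to 1266 for TAKI minus WT (351 without WT2, 347 without TAKI3, 369 without TAKI4, 288 without TAKI5, 1266 without TEKI1) and 392 to 1068 for TEKI minus TAKI (1068 without TEKI1, 356 higher and 712 lower, and 392 without TEKI3). The causes were not tested.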

Other observations

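Some genes spanned fold ranges as wide as those of the members but on another or on the opposite course. They were picked after their values were seen. Marco, a scavenger receptor of resident macrophages, spanned 26.5-fold over the 13 arrays, from 0.90 in WT2 to 5.63 in WT1, with an r of 0.03 to the members. Cd163, the haemoglobin scavenger receptor, spanned 18.3-fold, from -2.97 in TAKI2 to 1.22 in TAKI3 (r = -0.58). Its SD of 1.12 was below that of every member. Cfd, the complement factor adipsin, spanned 21.8-fold and was lowest in TAKI2, the highest array of 4 of the 6 genes, and highest in TEKI3 (r = -0.78). Hsd3b4 spanned 79.8-fold, more than any member, in the opposite order of arrays (r = -0.96). None of these genes passed the threshold between genotypes.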
